A study of Rattus norvegicus with 9 samples.

Results

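The serpins are a large family of proteins that share one fold, most of which trap and inactivate serine proteases. Their members were taken as every non-control probe whose gene name on the array starts with Serpin, leaving out Serping1. This gave 53 probes of 40 genes, out of 45598 probes on the array. Of these, 20 probes of 16 genes were well above background on 4 or more of the 9 arrays and could be compared between the groups.

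The right and left amygdala of 9 female SHR rats, the spontaneously hypertensive strain, gave the RNA, of which 200 ng was labelled for each 1-colour array, and each array held 1 rat. Every rat lost its ovaries at 4 weeks of age and had 1 week to recover before a minipump was placed under the skin. In the group OV (4 rats, replicates 1, 2, 3 and 5) the pump held only the PEG vehicle. In the group OV+E2 (5 rats) it released 2 µg of estradiol a day for 4 weeks, and tissue was taken at 9 weeks of age. Rats with intact ovaries are no group here, so every comparison is of estradiol against vehicle after ovariectomy.

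A serpin offers a protease a bait loop, and on cleavage the protease is dragged across the molecule and held in an inactive complex. Clade A members such as alpha-1 antitrypsin circulate in blood, and clade B members stay mostly inside cells and guard against leaked granule or lysosomal proteases. In brain the best known members are Serpini1 (neuroserpin) and Serpine2, which restrain tissue plasminogen activator and thrombin around neurons and glia, and Serpina3n, a gene often used to mark reactive astrocytes. A few members, such as the collagen chaperone Serpinh1, do not inhibit proteases at all.

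Levels below are log2 of the processed signal of a probe minus the 75th percentile of its array, so a level of 0 is that percentile. Differences are OV+E2 minus OV with the standard error (SE) of the fit, and levels are not compared between probes. A summed level of a list is not in log2. It adds the levels of the tested genes on the linear scale, so the brightest genes weigh most. One array stood apart. The 75th percentile of the signal was 129.7 on OV replicate 3 and 556.8 to 737.6 on the other 8, and OV replicate 3 had 24230 probes well above background against 29055 to 31398. Its level lay outside the range of the other 8 arrays for 15 of the 20 serpin probes, 7 above and 8 below, and for 73.5% of all 30215 probes tested. For this rat the authors' own value column also departs from its scanner file, with an SD of the log2 ratio of 1.00 against 0.00417 to 0.0307 for the other 8. The serpin differences are therefore given with and without this array, and those of other genes without it where they move by over 1.5 times. The arrays sat on 2 slides, unevenly by group: slide 1 held 3 OV and 2 OV+E2 rats, and slide 2 held 1 OV rat (replicate 5) and 3 OV+E2 rats, so each value within slide 2 rests on that 1 OV rat. The neuron markers (8 of 8) and amygdala markers (7 of 8) were above background on enough arrays to be tested.

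The array reads some of these genes with several 60-base probes, and what those probes are decides what can be said of Serpina3n, Serpinb9 and Serpina1. The first 30 bases of each are shown 5′ to 3′ as the scanner files give them, for the 5 probes named Serpina3n, for both Serpinb9 probes and for the single probes of Serpina1, Serpina4 and Serpini1, whose values are taken up below. Probes of a gene are told apart by the base of the transcript at which they start, and coordinates are those of rat build rn4. The places of Serpina1 and of Serpinb9 base 737 span more than the 60 bases of a probe. Whether they lie in coding sequence or a UTR was not analysed here.
Serpina3n, base 1494, chr6:128347919-128347978, plus strand: gctaacattaaactaaatggagagaaactt
Serpina3n, base 2041, chr6:128348466-128348524, plus strand: gatctacagattcaatgcaatccccattaa
Serpina3n, base 1602, chr6:128443870-128443929, plus strand: ctctttctgtgttcataccccaaacctagt
Serpina3n, base 1948, chr6:128469197-128469256, plus strand: ctacttagagcaatgcagcctttcttttag
Serpina3n, base 3215, chr6:128470465-128470524, plus strand: ttttgttgtttgaggaaagggctgtgcata
Serpinb9, base 737, chr17:37782600-37784834, minus strand: gaatgagaaacgactagtgcagatgatgtg
Serpinb9, base 3252, chr17:37778646-37778705, minus strand: tccttcctccagcttcttgacctgtttgag
Serpina1, chr6:127999839-128000771, minus strand: ccggttcctgctaaacaggcaaacaaggtc
Serpina4, chr6:128142442-128142501, plus strand: tttttctctgcccagcccaagaaacgttac
Serpini1, chr2:166554339-166554398, plus strand: aagtgcatcatatggagtcaatgcttctta

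Only 1 of the 5 probes named Serpina3n, base 1948, is described in the scanner files as that serpin, by the RefSeq transcript NM_031531. The probes at bases 1494, 2041 and 1602 are described there by another name, Ab1-233, and the probe at base 3215 as similar to part of gamma-fibrinogen, although it lies 1268 bases beyond the RefSeq probe on the same strand. The other 49 of the 53 member probes carry a serpin description, the RefSeq probe included. Bases 1494 and 2041 lie 121278 and 120731 bases from the RefSeq probe. In a search of the 33469 RefSeq promoter windows of build GRCr8, each from 250 bases before to 50 after a gene's start, both also matched 4 windows over at least 45 identical letters, with best matches of 59 and 54 letters, none of them the window of Serpina3n. The probe at base 3252 of Serpinb9 matched 11 windows, at best over 49 letters. No other serpin probe matched a window, and 2.12% of all probes on the array matched at least 1 and 0.36% at least 4. Which other transcripts these 3 probes read was not tested, and their values are given as those of the probe.

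Detected probes were found in every role. Of the 21 probes of circulating or acute phase members 7 passed, and of the 22 intracellular clade B probes 8. The role of plasminogen activator and thrombin inhibitors was given by name to all Serpine and Serpini genes, and 2 of their 5 probes passed. Serpinc1 and Serpind1 were counted with the circulating members. Of the 5 probes of members known for a role other than inhibition 3 passed. Together 37.7% of serpin probes passed, against 66.3% of all probes. The cut is a clear one: 16 probes were well above background on 9 arrays, 3 on 8 and 1 on 7, while 24 were so on none, 7 on 1, 1 on 2 and 1 on 3. The 3 probes of Serpinc1 (antithrombin) were well above background on 0 arrays, and so were Serpina6 and Serpina7, the plasma carriers of glucocorticoids and thyroid hormone. Just outside the cut lay the RefSeq probe of Serpina3n on 3 arrays and Serpind1 (heparin cofactor II) on 2, both of them OV. Neither was tested. Just inside lay Serpinb10 on 7 arrays.

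**Figure D1:**
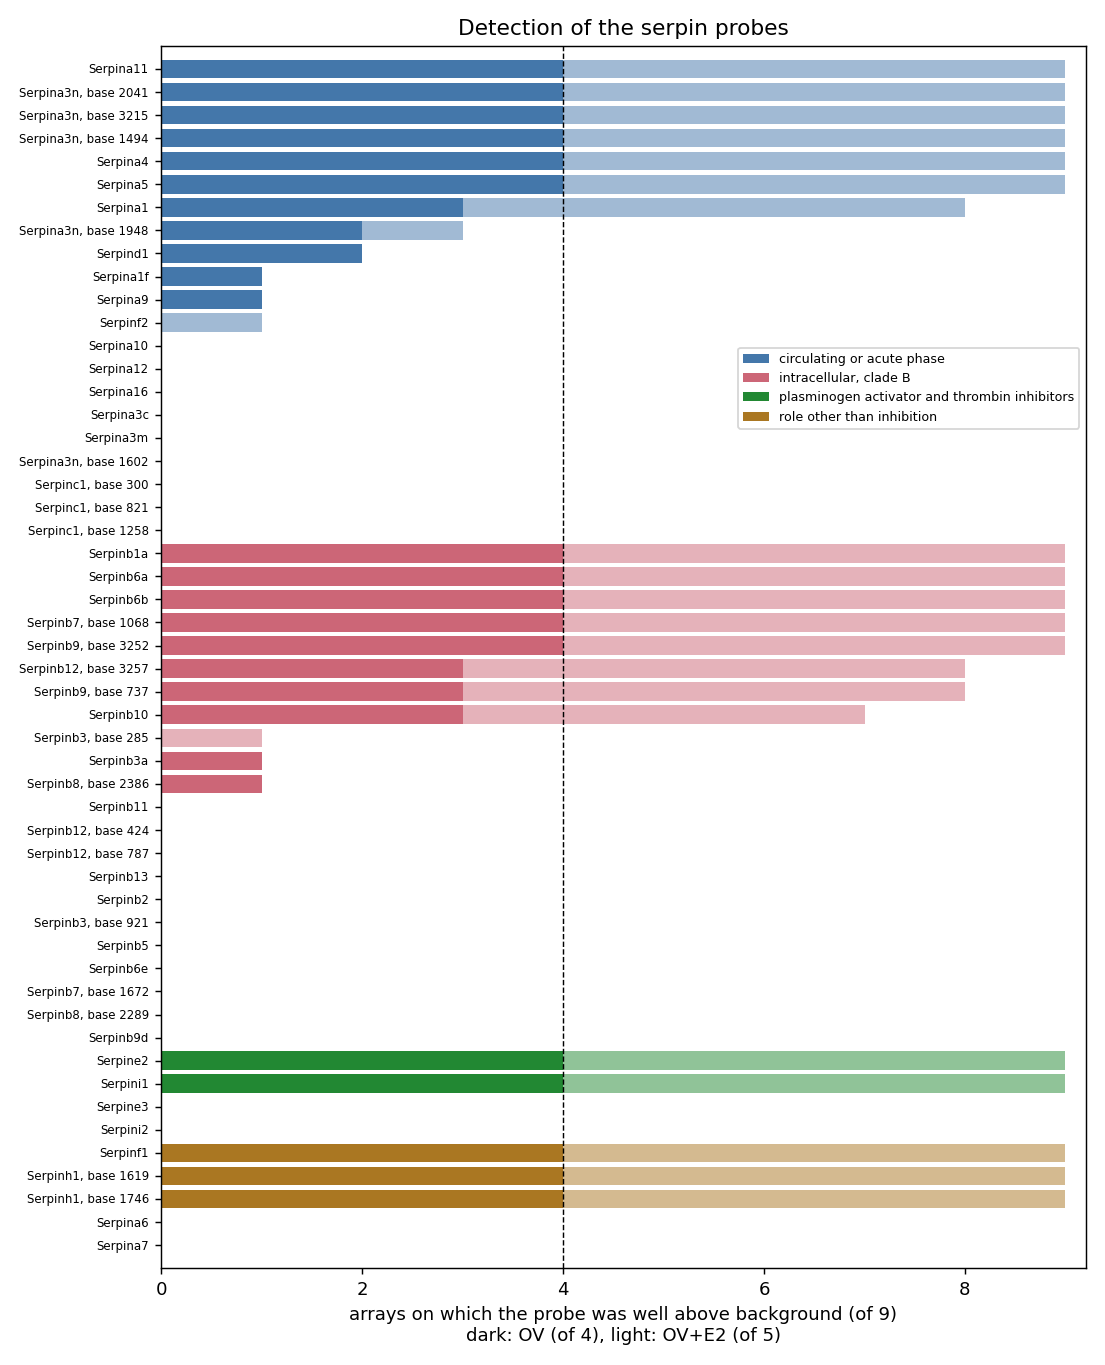
Bars give for each serpin probe shown (the probe of 1 member is left out) the number of arrays (of 9) on which it was well above background, dark for OV and light for OV+E2, coloured by role; the dashed line marks the minimum of 4 arrays. The 20 probes to the right of the line were well above background on 7 arrays or more, and the rest on 3 or fewer.

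Many of these genes sit side by side. On chromosome 6, between 127887685 and 128470524, lay 17 probes of 13 clade A genes, of which 7 probes of 5 genes passed. The clade B genes lay in 2 groups. Between 13057470 and 13742621 of chromosome 13, 3 of 15 probes passed (3 of 10 genes), and between 37334213 and 37959003 of chromosome 17, 5 of 7 (4 of 6 genes). RefSeq promoter windows were matched for 33 serpin genes, and the first window listed of each gene was read. The letters CG stood there 10 times or more in 4 of 15 genes that passed and 0 of 18 that did not, against 44.1% of all 27457 genes with a window. The letters AGGTCA, on either strand, stood there in 6 of the 33 (18.18%), against 15.68% of all genes. A match of letters is not a binding site, and estrogen receptor binding was not measured here.

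No serpin probe differed between the groups after adjustment: 0 of 20 had an adjusted p under 0.05 in limma, as did 0 of all 30215 probes tested (0%), and the smallest adjusted p among serpins was 0.251. At an unadjusted p under 0.05 there were 2 serpin probes, Serpina1 higher and Serpina4 lower in OV+E2, against 10.4% of all probes (3.21% higher and 7.17% lower). The differences were positive for 10 probes and negative for 10, from −0.61 to +0.80, with a median of +0.013 against +0.0011 over all probes. The median SE was 0.21 for serpins and 0.18 for all probes, which limits what size of difference could be seen. Without OV replicate 3, 7 differences were positive and 13 negative with a median of −0.064, and the count at p under 0.05 was again 1 higher and 1 lower, where 14.1% of all probes passed. There 0 serpin probes and 0.00331% of all probes had an adjusted p under 0.05 in limma. In the authors' values the same held for 0 serpin probes and 0.234% of all, and at an unadjusted p under 0.05 for 2 serpin probes, Serpina1 and Serpini1, both higher, against 18.8% of all.

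**Figure D2:**
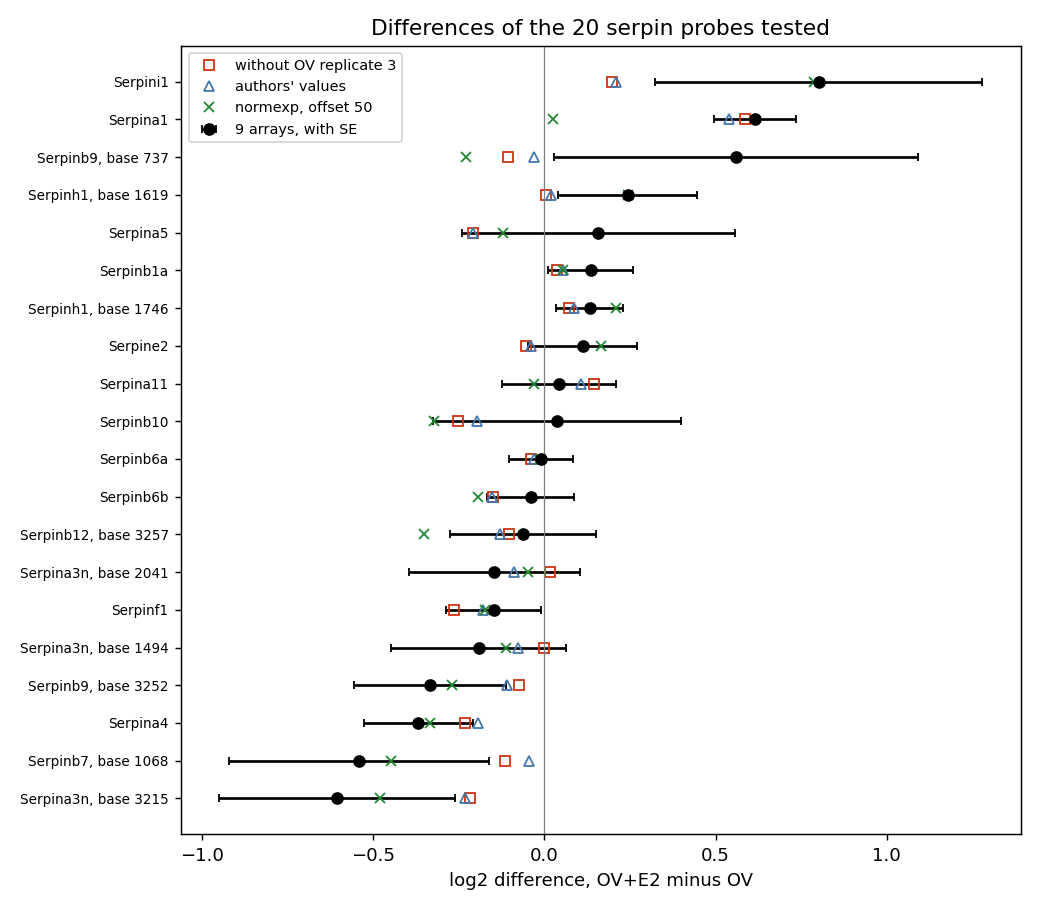
Each row is 1 of the 20 serpin probes tested, and the horizontal axis is the log2 difference OV+E2 minus OV; black points with bars give the value over 9 arrays and its SE, and the other marks the value without OV replicate 3, from the authors' values and after normexp background correction. Serpini1 moves from 0.80 to 0.20 and Serpina3n base 3215 from −0.61 to −0.22 without OV replicate 3, while Serpina1 stays at 0.59 there and is at 0.02 after normexp.

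Serpina1 encodes alpha-1 antitrypsin, the main plasma inhibitor of neutrophil elastase. Its level was −3.54, −3.53, −3.78 and −3.94 in OV replicates 1, 2, 3 and 5, and −3.24, −3.21, −3.02, −2.92 and −3.02 in OV+E2 replicates 1 to 5. Every OV+E2 rat lay above every OV rat, and of the 20 serpin probes tested this was the only one whose groups did not overlap, against 6.89% of all probes in either direction and 2.89% with OV+E2 higher. The difference was +0.61 ± 0.12 (SE, n = 4 and 5), with an unadjusted p of 0.000631 and an adjusted p of 0.251 in limma. It was a dim probe, with processed signals of 42.3 to 59.8 in OV replicates 1, 2 and 5, 9.44 in OV replicate 3 and 67.4 to 90.9 in OV+E2, and it was well above background in 3 of 4 OV and 5 of 5 OV+E2 rats. The difference was +0.59 without OV replicate 3, +0.39 within slide 1 and +0.95 within slide 2, whose only OV rat had the lowest Serpina1 level. With array quality weights it was +0.55 with an adjusted p of 0.0147, a setting at which 11.6% of all probes passed. After normexp background correction with an offset of 50 it was +0.02, and the cause of that shift was not tested.

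Alpha-1 antitrypsin is made mostly in liver, and 4 of 6 liver markers could be tested. Of these Alb (albumin) was higher at an unadjusted p under 0.05, by 0.52 ± 0.13 (adjusted p = 0.251, limma), with levels of −3.49 ± 0.18 in OV and −2.97 ± 0.17 in OV+E2 (SD). After normexp the Alb difference was −0.029. Ahsg differed by −0.40 ± 0.22, Tf by −0.091 ± 0.17 and Apoc3 by −0.026 ± 0.39, while Fgb was well above background on 0 arrays and Apoa1 on 1. Without OV replicate 3 Ahsg was at −0.13 and Apoc3 at +0.45, and the median of the list turned from −0.059 to +0.18. The summed level of the list was 46.5 to 54.9 in OV and 37.7 to 63.0 in OV+E2. Of 7 tested blood markers 5 were lower in OV+E2 at that threshold and 0 higher, where 6.18% of all genes tested were lower and 3.65% higher. In all 1 was higher and 6 lower. Among the 5 were Hba-a1 at −0.33 ± 0.11 and the neutrophil gene S100a8 at −1.15 ± 0.30 (−0.20 and −0.65 after normexp). S100a8 was dim, with a mean level of −4.96 in OV+E2, and was well above background on 6 arrays. The part of blood or of other tissue in the Serpina1 values was not tested.

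Serpina4 encodes kallistatin, an inhibitor of tissue kallikrein. Its level was −1.06, −0.59, −0.23 and −0.69 in the 4 OV rats and −1.07, −1.04, −1.15, −0.82 and −0.98 in the 5 OV+E2 rats. OV replicate 1 lay among the OV+E2 rats and OV replicate 3 was the highest. The difference was −0.37 ± 0.16 with an unadjusted p of 0.0456 and an adjusted p of 0.473 in limma. It was −0.23 without OV replicate 3 (unadjusted p = 0.0914) and −0.19 in the authors' values. With array quality weights it was −0.35 with an adjusted p of 0.045, and with OV replicate 1 left out −0.51 with an adjusted p of 0.168.

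The 3 tested probes named Serpina3n all had a negative difference over 9 arrays with overlapping groups, and none had an adjusted p under 0.05 in limma. At base 3215 the level was −2.56, −2.14, −0.68 and −1.99 in OV and −2.69, −2.69, −2.44, −2.02 and −2.40 in OV+E2. The groups overlapped, and OV replicate 3 stood well above all others. The difference of −0.61 ± 0.34 (adjusted p = 0.514, limma) was −0.22 without that array. At base 2041 the level was 4.20, 5.19, 5.51 and 5.21 in OV and 4.78, 4.66, 5.20, 4.95 and 4.82 in OV+E2, with OV replicate 1 the lowest of the 9. The difference was −0.15 ± 0.25, +0.015 without OV replicate 3 and −0.42 without OV replicate 1. At base 1494 the level was 3.59, 4.61, 5.03 and 4.59 in OV and 4.19, 4.07, 4.49, 4.32 and 4.25 in OV+E2, again with OV replicate 1 lowest and OV replicate 3 highest, and the difference was −0.19 ± 0.26. It was −0.00013 without OV replicate 3 and −0.48 without OV replicate 1. The gap between these last 2 probes was 0.57 to 0.70 on 8 arrays and 0.48 on OV replicate 3, so they moved nearly together. The RefSeq probe at base 1948 was well above background on 2 OV and 1 OV+E2 array, its pair of spots differed with an SD of up to 1.49 on 1 array, and it was not tested. Of the 8 reactive astrocyte markers tested 0 had an unadjusted p under 0.05, where 3.65% of all genes tested were higher and 6.18% lower. In all 3 of these markers were higher and 5 lower. Their summed level was 7.60 to 8.60 in OV and 8.03 to 8.45 in OV+E2.

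The other 2 clade A members that passed showed wide spreads in OV. Serpina5, the protein C inhibitor, was at −1.97, −1.25, −2.67 and −0.39 in OV and between −1.84 and −1.21 in OV+E2, a difference of +0.16 ± 0.40 that was −0.21 without OV replicate 3. Serpina11 was at −1.24, −0.93, −0.89 and −1.72 in OV and between −1.22 and −1.07 in OV+E2, a difference of +0.04 ± 0.17, and +0.14 without OV replicate 3.

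**Figure D3:**
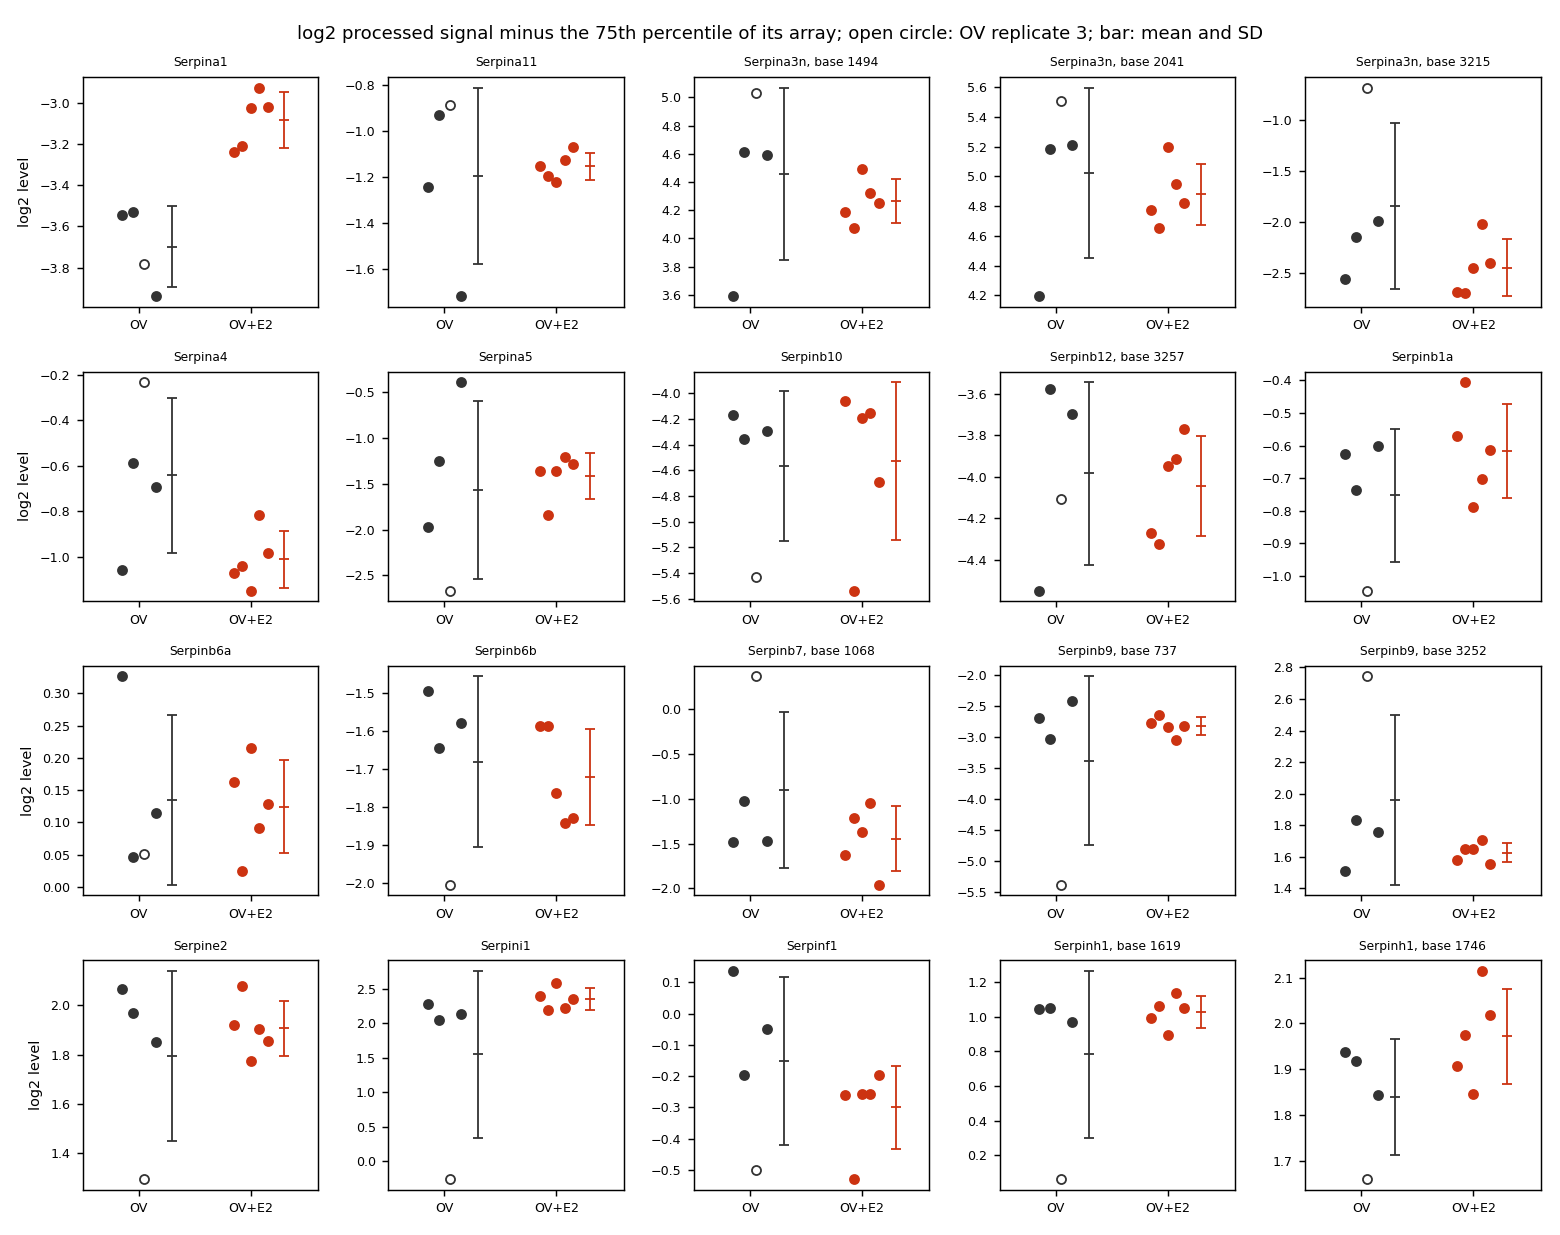
Each panel shows 1 of the 20 serpin probes tested, with 1 point per rat on a log2 level axis of its own, OV in black (4 rats, replicate 3 as an open circle) and OV+E2 in red (5 rats), and a bar for the mean and SD. Only in the Serpina1 panel do the groups not overlap, and the open circle is the highest or lowest of the 9 points in 15 of the 20.

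Serpini1 and Serpine2 were the tested members of the role of plasminogen activator and thrombin inhibitors. Serpini1 (neuroserpin), the inhibitor of tissue plasminogen activator, was at 2.28, 2.04, −0.27 and 2.13 in OV and 2.39, 2.19, 2.59, 2.22 and 2.35 in OV+E2. OV replicate 3 was far below the other 8 rats, which ran from 2.04 to 2.59. The difference of +0.80 ± 0.48 (unadjusted p = 0.128, adjusted p = 0.517, limma) was the largest of the family and was +0.20 without that array, with an unadjusted p of 0.0997. In the authors' values, where OV replicate 3 differs from the mean of the other OV rats by −0.052, it was +0.21 with an unadjusted p of 0.0488 and an adjusted p of 0.263. Serpine2 (protease nexin 1), which blocks thrombin, was at 2.07, 1.97, 1.29 and 1.85 in OV and 1.92, 2.08, 1.77, 1.90 and 1.86 in OV+E2. The difference was +0.11 ± 0.16 (adjusted p = 0.713, limma) and −0.055 without OV replicate 3. Of the 8 neuron markers 7 were higher in OV+E2 and 1 lower, with 1 at an unadjusted p under 0.05, Slc17a7 at +0.30 ± 0.093. Of all genes tested 3.65% were higher and 6.18% lower at that threshold. The median of the neuron list was 0.21, and 0.13 without OV replicate 3. There Snap25 and Gad2 turned, to −0.011 and −0.0094, and the others kept their direction. The summed level of the neuron markers was 126.8 on OV replicate 3 and 140.9 to 172.9 on the other 8 arrays, and their part in the Serpini1 values was not tested. In whole tissue fewer cells of a type and less RNA in each cell cannot be told apart.

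Among the intracellular clade B members Serpinb9, the inhibitor of granzyme B, was read by 2 tested probes that differed in direction. At base 3252 the level was 1.51, 1.83, 2.74 and 1.76 in OV and 1.58, 1.65, 1.65, 1.70 and 1.55 in OV+E2. At base 737 it was −2.70, −3.04, −5.39 and −2.42 in OV and −2.78, −2.65, −2.84, −3.05 and −2.82 in OV+E2. On OV replicate 3 the first was the highest of 9 and the second the lowest. The gap between the probes was 4.18 to 4.87 on 8 arrays and 8.13 on OV replicate 3. The differences were −0.33 ± 0.22 and +0.56 ± 0.53 over 9 arrays (adjusted p = 0.525 and 0.594, limma), and −0.073 and −0.11 without that array.

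Serpinb7 (megsin) was at −1.48, −1.03, 0.37 and −1.48 in OV and −1.63, −1.21, −1.37, −1.05 and −1.96 in OV+E2 for the probe at base 1068. Without OV replicate 3, the highest of 9, the difference of −0.54 ± 0.38 was −0.12, and the probe at base 1672 was well above background on 0 arrays. Serpinb1a, an inhibitor of neutrophil proteases, was at −0.62, −0.74, −1.04 and −0.60 in OV and −0.57, −0.41, −0.79, −0.70 and −0.61 in OV+E2. Its difference was +0.14 ± 0.12, and +0.038 without OV replicate 3, the lowest rat. Serpinb6a, an inhibitor of cathepsin G, varied little, with 0.33, 0.05, 0.05 and 0.11 in OV and 0.16, 0.02, 0.21, 0.09 and 0.13 in OV+E2. The difference of −0.010 ± 0.093 had the smallest SE of the tested serpins, and was −0.038 without OV replicate 3. Serpinb6b was at −2.01 to −1.49 in OV and −1.84 to −1.59 in OV+E2, a difference of −0.04 ± 0.13, and −0.15 without that array. Serpinb12 (base 3257) and Serpinb10, a member known from blood-forming cells, were dim and differed by −0.06 ± 0.21 and +0.04 ± 0.36, and by −0.10 and −0.25 without it. Of the 10 microglia markers 4 were higher and 6 lower in OV+E2. At an unadjusted p under 0.05 in limma 4 were lower and 0 higher, where 6.18% of all genes tested were lower and 3.65% higher. Itgam differed by −0.58 ± 0.11 and Aif1 by −0.39 ± 0.12. The summed level of that list was 48.5 to 72.3 in OV and 45.3 to 50.8 in OV+E2. It was 72.3 on OV replicate 3 and 45.3 to 56.8 on the other 8 arrays.

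Serpinh1 is the chaperone that helps collagen fold in the endoplasmic reticulum. Both its probes have 10 spots on each array, with an SD between spots of 0.037 to 0.13, and a level is the mean of those spots. At base 1746 the level was 1.94, 1.92, 1.66 and 1.84 in OV and 1.91, 1.97, 1.84, 2.12 and 2.02 in OV+E2, a difference of +0.13 ± 0.098 (adjusted p = 0.536, limma) that was +0.072 without OV replicate 3. At base 1619 it was 1.04, 1.05, 0.06 and 0.97 in OV and 0.99, 1.06, 0.89, 1.14 and 1.05 in OV+E2, a difference of +0.24 ± 0.20 that was +0.0035 without that array. The second probe minus the first was −0.98 to −0.87 on 8 arrays and −1.60 on OV replicate 3. Of the 11 meninges and fibroblast markers, collagens among them, 4 were higher and 7 lower in OV+E2. At an unadjusted p under 0.05 in limma 5 were lower and 0 higher, where 6.18% of all genes tested were lower and 3.65% higher. Col1a1 differed by −0.62 ± 0.11 and Col3a1 by −0.47 ± 0.12. Serpinf1, pigment epithelium-derived factor, was at 0.14, −0.20, −0.50 and −0.05 in OV and −0.26, −0.53, −0.26, −0.26 and −0.20 in OV+E2. Its difference was −0.15 ± 0.14, and −0.26 without OV replicate 3, with an unadjusted p of 0.0341 and an adjusted p of 0.308 in limma.

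**Figure D4:**
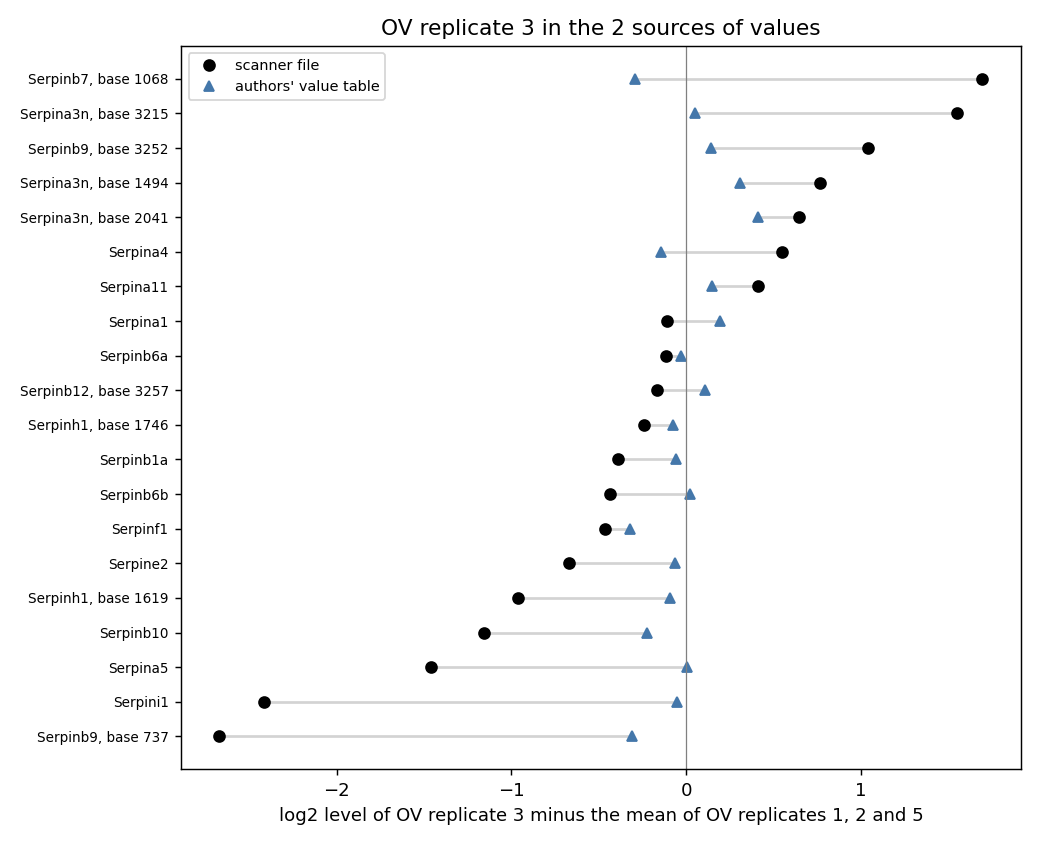
For each of the 20 serpin probes tested the horizontal axis gives the log2 level of OV replicate 3 minus the mean of OV replicates 1, 2 and 5, black for the scanner file and blue for the authors' value table. In the scanner file the values run from −2.67 (Serpinb9 base 737) to 1.70 (Serpinb7 base 1068), and in the authors' table from −0.32 (Serpinf1) to 0.41 (Serpina3n base 2041). In the scanner file of OV replicate 3 the probe of Serpinb9 base 737 was not well above background.

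A list of serine proteases, receptors and related genes, not all of them serpin targets, showed no call either. Of the 28 genes listed 18 could be tested, 0 had an adjusted p under 0.05 in limma, and 2 were higher and 2 lower at an unadjusted p under 0.05, where 3.65% of all 15832 genes were higher and 6.18% lower. In all 5 were higher and 13 lower, with a median of −0.07 against +0.02 over all genes. Vtn (vitronectin, an adhesive plasma and matrix protein) differed by −0.32 ± 0.075, Plg (plasminogen) by −0.44 ± 0.15 and F12 by −0.31 ± 0.15. Htra1 was higher by 0.92 ± 0.25, F3 (tissue factor) by 0.68 ± 0.29 and the receptor Vldlr by 0.62 ± 0.31. Without OV replicate 3 these were 0.62, 0.32 and 0.23. Adjusted p values of these 6 were 0.251 to 0.505. Plat, which encodes the tissue plasminogen activator that Serpini1 inhibits, differed by −0.0043 ± 0.094, and by +0.022 without OV replicate 3. F2 (prothrombin), Plau (urokinase) and the neutrophil proteases Elane and Ctsg were well above background on 0 arrays, Gzmb (granzyme B) on 1, and Prtn3 on 9.

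Of 27 protease inhibitors that are not serpins 26 were on the array and 21 could be tested, and 0 had an adjusted p under 0.05 in limma. At an unadjusted p under 0.05, 2 were higher and 2 lower, where 3.65% of all genes tested were higher and 6.18% lower. In all 11 were higher and 10 lower, with a median of 1.23e-05. Itih2, an inter-alpha-trypsin inhibitor heavy chain, differed by −1.99 ± 0.44, the largest difference of both lists, and was well above background on 6 arrays. After normexp it was −0.90. Spint1 differed by −0.23 ± 0.090 and Timp1 by −0.25 ± 0.12. Timp4 was higher by 0.28 ± 0.12, Spock1 by 0.38 ± 0.17 and Reck by 0.30 ± 0.23, and these were 0.18, 0.26 and 0.029 without OV replicate 3. The summed level of these inhibitors was 677.7 on OV replicate 3 and 386.2 to 488.4 on the other 8 arrays.

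The remaining marker lists, as counts at an unadjusted p under 0.05, were 0 of 9 for astrocytes, 2 lower of 9 for endothelium, 1 lower of 8 for pericytes and smooth muscle, 1 lower of 6 for oligodendrocytes, 0 of 8 for choroid plexus and 0 of 7 for amygdala subregions. Of all genes tested 6.18% were lower and 3.65% higher at that threshold. At any p, 3 astrocyte markers were higher and 6 lower, 3 and 6 for endothelium, 3 and 5 for pericytes and smooth muscle, and 5 and 2 for amygdala subregions. All 6 oligodendrocyte markers were lower, with a median of −0.37 (−0.23 without OV replicate 3). All 8 choroid plexus markers were higher, with a median of 0.63 (0.98 without OV replicate 3). Choroid plexus markers varied most between rats, with summed levels of 13.56 to 754.1 in OV, the highest in OV replicate 3, and 256 to 483 in OV+E2. Their part in the serpin values was not tested.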

How the data were processed

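The deposited scanner files of the Agilent rat arrays (1 colour, Cy3) give each spot's processed signal, a background-subtracted intensity. Feature Extraction is named as version 10.7.3.1 in the file headers and as 9.1 in the submitters' processing notes. The authors' value table, used as an alternative, holds intensity values as deposited, with scaling not given in the sources used here. Coordinates are those printed in the files.

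Control spots (4259 of 62976) and outlier spots were left out, and spots of a probe averaged. Log2 signals were centred on the 75th percentile of each array. Tests were run on probes that passed the well-above-background mark on a minimum of 4 arrays, counting an array where at least 0.5 of the probe's spots did. The comparison used lmFit and eBayes of limma 3.58.1 (R 4.3.3), two-sided, with Benjamini-Hochberg adjustment over 30215 probes; 1 rat per array makes the rats the replicates. A gene of a list was read by its brightest probe. Sequences were searched with blastn 2.17.0. The fits were tested on simulated data with independent noise on every array, which does not cover an array that stands apart as OV replicate 3 does.

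Values in every rat are given for the 5 serpin probes of smallest p in each direction and for the named genes of each role. Group differences are given for 3 genes per direction of each list of proteases or inhibitors, and for up to 2 per marker list. Snap25 and Gad2 of the neuron list are named besides, for their change of direction. Values of Serpina5 and Serpina11, the 4 remaining liver markers, Plat, and the proteases not detected were added after their values were seen. The values of 1 member are not reported here; it stays in the counts. The members and the lists were chosen with earlier results of these data known. Replicate numbers were not treated as pairs in the main fit. Deviations of same-numbered rats correlated at 0.17, −0.0761, −0.011 and 0.105. These were not set beside differently numbered rats, so they cannot settle whether rats were paired.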

Additional observations from a re-analysis of the deposited data

Results flagged for a closer look

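In 5 of the 40 sets of values checked (20 probes in each group) the highest or lowest rat stood apart from the others of its group by more than a Dixon test allows, which chance does in about 1 of 20 sets. OV replicate 3 was the lowest of its group at Serpini1, with a level of −0.265 against 2.04 for the nearest rat. It was also lowest at Serpinh1 base 1619, at 0.0618 against 0.97, and at Serpinb10, at −5.43 against −4.36. The Serpinb10 signal of OV replicate 3 was 3.00, under the dimmest signal well above background on that array (12.17). OV+E2 replicate 2 was lower still at Serpinb10, at −5.54. OV+E2 replicate 2 was the lowest of its group at Serpina5, at −1.84 against −1.36, and at Serpinf1, at −0.531 against −0.26.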

How the results depend on the processing

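No serpin probe had an adjusted p under 0.05 in limma in any alternative that has a test but array quality weights. There 2 of 20 did, Serpina1 (0.547) and Serpina4 (−0.347), against 11.6% of all probes. The count at an unadjusted p under 0.05 was 2 of 20 over 9 arrays, where 10.4% of all probes passed. It was 0 after normexp and 1 with median scaling or with the slide as a block. With probes above background on all 9 arrays it was 1 of 16, and with no filter 6 of 53. It was 4 of 20 with array weights and 1 to 5 with 1 rat left out, the highest without OV replicate 1. The replicate block gave 1, and changed no adjusted call. Beyond the 14.1% without OV replicate 3, the share of all probes at that threshold was not taken for these alternatives. The median serpin difference was −0.115 after normexp, −0.357 with no filter, −0.110 within slide 2 and −0.107 with array weights. The median of the protease list was −0.227, 0.0396, −0.310 and 0.0299 after normexp, median scaling, no filter and array weights, and −0.171 (without OV replicate 2) to −0.0204 with 1 rat left out. That of the other inhibitors was 0.113 after normexp and 0.106 with median scaling. The cause of these shifts was not tested. Over all probes the median was 0.11 with median scaling and −0.11 after normexp.

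Of the 20 probes 7 kept their direction throughout and 13 turned in at least 1 alternative. After normexp Serpina5 was −0.119, Serpinb10 −0.322, Serpinb9 base 737 −0.230 and Serpina11 −0.0307. With quantile normalization Serpinb6b was 0.0247 and Serpinb12 0.0639, and with median scaling Serpinb6a was 0.0954, Serpinb6b 0.0651 and Serpinb12 0.0431. With the slide as a block Serpina5 was −0.123 and Serpinb10 −0.109. Within slide 1 Serpinb6b was 0.128, Serpinb10 −0.146 and Serpina11 −0.152. Within slide 2 Serpinb6a was 0.0300, Serpina5 −0.899, Serpinb7 0.0169, Serpinb10 −0.0505, Serpinb9 base 737 −0.481, Serpine2 −0.0070 and Serpinb1a −0.0996. With the replicate block Serpinb10 was −0.0576. With array weights Serpinb6a was 0.0507, Serpina5 −0.140, Serpinb10 −0.101, Serpine2 −0.0709 and Serpina11 −0.0645. In the authors' values Serpina5 was −0.210, Serpinb10 −0.197, Serpinb9 base 737 −0.0297 and Serpine2 −0.0389. In the same values without OV replicate 3, an alternative added after seeing the data, Serpina5 was −0.208, Serpinb10 −0.253, Serpina3n base 2041 0.0152 and base 1494 6.37e-05, Serpinb9 base 737 −0.107, Serpinh1 base 1619 −0.00241 and Serpine2 −0.0548. With 1 rat left out the ranges were −0.0395 to 0.0538 for Serpinb6a, −0.149 to 0.0216 for Serpinb6b, −0.208 to 0.551 for Serpina5, −0.253 to 0.288 for Serpinb10, −0.251 to 0.0727 for Serpinb12, −0.424 to 0.015 for Serpina3n base 2041, −0.108 to 0.881 for Serpinb9 base 737, −0.055 to 0.202 for Serpine2 and −0.133 to 0.144 for Serpina11.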
